A study of Mus musculus with 4 samples.

Results

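Interferon-stimulated genes are the transcripts that cells switch on when interferon binds its receptors, and their level in the cells of 4 arrays is described here together with the 4 receptor chains. A list of 38 such genes was searched in the array's annotation, and a gene was taken where a probe set (the group of probes that reports 1 transcript) carried exactly 1 gene symbol. Members found were 36 of the 30142 genes that the array names in this way, 32 interferon-stimulated genes and the 4 receptor chains, each with a single probe set. Ifi44 was not named by any probe set in the annotation used, and the probe set listing Ifi47 carried a second symbol, so both are not analysed here.

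The arrays measured lineage-negative, c-Kit-positive bone marrow progenitors (LK cells) from the NOD strain, non-obese diabetic mice that develop autoimmune diabetes. All 4 samples were kept for 4 h at 37 °C in StemSpan medium. The vehicle group (2 arrays) received DMSO, and the combination group (2 arrays) received 10 µM dmPGE2, a stable analog of prostaglandin E2, and 10 µM dexamethasone, a synthetic glucocorticoid. Duplicates are described as biological in the design text. Age, sex and pooling of the mice are not stated in the labels, so p-values measure the spread between these samples. Each group holds an array numbered 1 and an array numbered 2, and the labels give the number no meaning beyond a name. No sample received either drug alone, and none received interferon.

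Type I interferons (alpha and beta) bind Ifnar1 with Ifnar2, and the kinases on these chains activate Stat2, which joins Irf9 in a complex that binds the interferon-stimulated response element in target promoters. Interferon gamma binds Ifngr1 with Ifngr2, and its targets often carry the gamma-activated sequence. The targets sense viral RNA, degrade it, block translation or trap particles, and some of them raise or end the response itself. In the marrow, interferon is known to push quiescent stem cells into division.

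Signals are RMA values on the log2 scale, so 1 unit is a 2-fold difference. Array medians lay between 4.36 and 4.44, and the highest single background probe set, made to match no transcript, reached 5.55. A signal at or below that height is described as within the background range, and a fold that starts from it may be understated. Of the 36 members, 1 lay there on vehicle 1, 13 on vehicle 2, 1 on combination 1 and 11 on combination 2. The progenitor marker Kit lay between 9.62 and 10.51 on the 4 arrays, and 5 measured T cell markers lay between 3.72 and 4.76, all within the background range. In bulk samples such as these, fewer cells of a type and less RNA per cell cannot be told apart.

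The interferon-stimulated genes were high on both arrays numbered 1 and low on both arrays numbered 2, with vehicle and with the drugs alike. Over the 32 interferon-stimulated genes, the array numbered 2 lay below the array numbered 1 by a median of 3.59 in the vehicle group, which is 12.01-fold, and of 3.39 in the combination group, which is 10.5-fold. The corresponding medians over all 30142 genes were 0.02 and -0.01 for number 2 minus number 1. Lower by at least 1 in both groups were 27 of the 36 members, against 0.574% of all genes, and both arrays numbered 2 lay below both numbered 1 for 31 members, against 19.3% of all genes. The receptors did not share the pattern, as 3 of the 4 chains were higher on both arrays numbered 2.

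Limma's test of the number, in a fit with the treatment as a second term, called 18 of the 36 members at an adjusted p under 0.05, all of them lower on the arrays numbered 2. It called 0.109% of all named genes, 33 in all, so members were 18 of the 33. At an unadjusted p under 0.05, 32 members were lower and 3 higher, against 5.24% and 4.3% of all named genes. The adjusted calls depended on how the values were scaled and on which features were tested: 0 members passed after a second quantile normalization, after centring the arrays, or with control rows kept in the fit, where the lowest adjusted p of a member in limma was 0.056, 0.054 and 0.30. The median difference stayed near its value under these settings, as given with the alternatives. An exact permutation test of 2 arrays against 2 cannot go below p = 0.33, so these calls rest on a spread that limma pools over features.

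**Figure D1:**
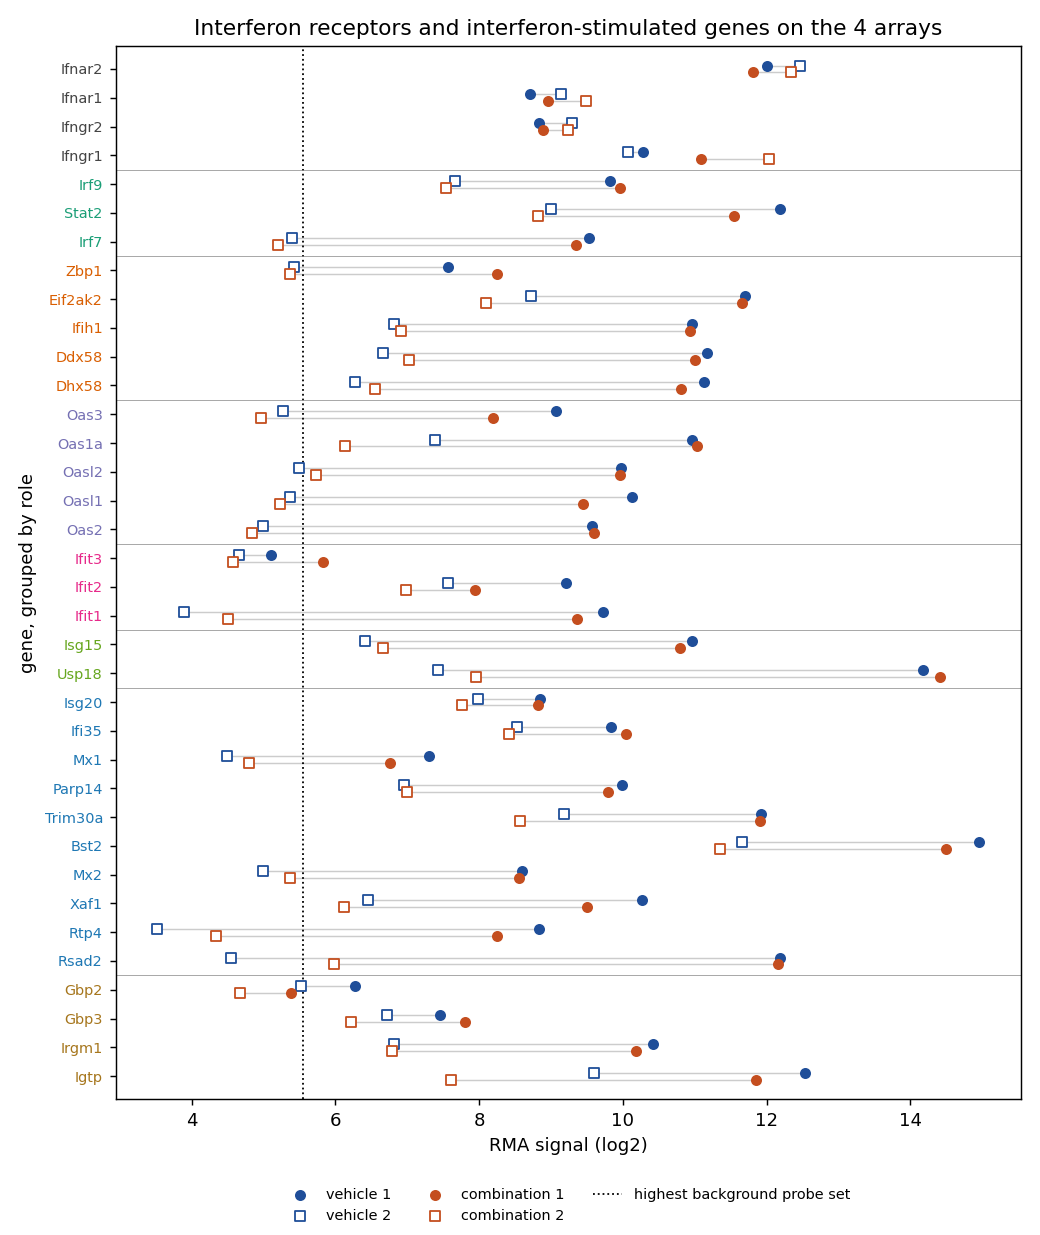
RMA signal (log2, horizontal axis) of the 36 members on the 4 arrays, with genes grouped by role and coloured by group; filled circles are arrays numbered 1, open squares arrays numbered 2, blue is vehicle and orange the combination, and the dotted line marks the highest background probe set at 5.55. Circles lie to the right of squares for most interferon-stimulated genes in both colours, while 3 of the receptor chains at the top have squares to the right of circles and Ifngr1 spreads from 10.07 to 12.04.

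The largest differences belonged to a radical enzyme and a protease. Rsad2, which encodes viperin, an antiviral enzyme that makes a chain-terminating nucleotide, was at 12.18 on vehicle 1 and 4.55 on vehicle 2, and at 12.16 on combination 1 and 5.98 on combination 2. The 2 arrays numbered 1 were thus close, while the 2 arrays numbered 2 differed by 1.43. The duplicates of 1 treatment lay 198-fold and 72.7-fold apart (number 2 minus number 1 of -6.91, SE 0.37, limma adjusted p = 0.039). Usp18, which removes the ubiquitin-like protein Isg15 from its targets and shuts off signalling at Ifnar2, was at 14.17 and 7.43 with vehicle and at 14.41 and 7.95 with the combination, 107-fold and 87.8-fold (-6.60, SE 0.16, limma adjusted p = 0.026). Among all 30142 genes, Rsad2 ranked 1 and Usp18 ranked 2 by how much lower the arrays numbered 2 were. Isg15 itself was at 10.96 and 6.41 with vehicle and at 10.79 and 6.67 with the combination, and limma called it (adjusted p = 0.026).

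The factors that carry the type I signal into the nucleus differed in the same direction. Irf7, which amplifies interferon alpha production, was at 9.53 and 5.40 on the vehicle arrays numbered 1 and 2 and at 9.35 and 5.21 on the combination arrays (-4.14, SE 0.14, limma adjusted p = 0.026). On both arrays numbered 2 Irf7 lay within the background range. Stat2, a signal transducer of the type I receptor, was at 12.19 and 8.995 and at 11.55 and 8.82 (-2.96, limma adjusted p = 0.051). Irf9, the DNA-binding partner of the complex, was at 9.82 and 7.66 and at 9.97 and 7.54 (-2.29, limma adjusted p = 0.056). Stat2 and Irf9 thus missed the threshold although their groups of numbers did not overlap.

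All 5 sensors and kinases of viral nucleic acid were lower on the arrays numbered 2 by over 2 units in each group, and limma called 4. Ifih1 (MDA5), a detector of long double-stranded RNA, was at 10.97 and 6.81 with vehicle and at 10.93 and 6.91 with the combination (-4.09, SE 0.14). Ddx58 (RIG-I), which detects 5′ triphosphate RNA, was at 11.16 and 6.66 and at 10.999 and 7.02 (-4.24, SE 0.19). Dhx58 (LGP2), the regulator of both, was at 11.13 and 6.28 and at 10.81 and 6.55 (-4.56, SE 0.20). Limma's adjusted p was 0.026 for each of these RNA helicases. Eif2ak2 (PKR), a kinase that stops translation, was at 11.71 and 8.72 and at 11.65 and 8.09, and limma's adjusted p was 0.0497, just under the threshold. Zbp1, a sensor of Z-form nucleic acid that can start necroptosis, was at 7.57 and 5.42 and at 8.25 and 5.37, and it missed the threshold (limma adjusted p = 0.096).

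The 2-5A synthetases make the messenger that activates RNase L, and the related genes Oasl1 and Oasl2 were listed with them. All 5 were lower by more than 3 units on the arrays numbered 2 in both groups. Oas2 was at 9.57 and 4.99 with vehicle and at 9.59 and 4.83 with the combination (-4.67, SE 0.15, limma adjusted p = 0.026). Oasl1 was at 10.13 and 5.37 and at 9.45 and 5.23, and Oasl2 at 9.98 and 5.49 and at 9.96 and 5.73, both with a limma adjusted p of 0.026. Oas3 was at 9.07 and 5.28 and at 8.19 and 4.96 (limma adjusted p = 0.042). Oas1a was the family member not called: it was at 10.96 and 7.39 with vehicle and at 11.04 and 6.14 with the combination, so the 2 group differences were -3.58 and -4.90 (limma adjusted p = 0.080).

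The IFIT proteins bind viral RNA and translation factors, and this family was split. Ifit1, which recognises RNA caps that lack a methyl group, was at 9.73 and 3.89 with vehicle and at 9.36 and 4.51 with the combination, 57.1-fold and 28.9-fold (-5.34, SE 0.27, limma adjusted p = 0.037). Ifit2 was at 9.21 and 7.56 and at 7.95 and 6.98 (-1.31, limma adjusted p = 0.25). Ifit3 was at 5.10 and 4.65 and at 5.83 and 4.58, within the background range on 3 of the 4 arrays (-0.85, limma adjusted p = 0.38). Only Ifit1 of the 3 was called by limma, and the differences between the family members were not tested.

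Among the 10 other antiviral effectors measured, 9 were lower by at least 1 on the arrays numbered 2 in both groups, and limma called 5: Rsad2, Mx2, Bst2, Xaf1 and Parp14. Bst2 (tetherin), which holds budding particles at the membrane, was at 14.96 and 11.66 with vehicle and at 14.50 and 11.35 with the combination (-3.22, SE 0.14, limma adjusted p = 0.026). Mx2, a dynamin-like GTPase, was at 8.59 and 4.998 and at 8.55 and 5.37 (limma adjusted p = 0.037). Xaf1, which promotes apoptosis, was at 10.27 and 6.45 and at 9.503 and 6.11 (limma adjusted p = 0.031). All 3 kept the order of the numbers in both treatments. Parp14, an ADP-ribosyltransferase, was at 9.98 and 6.96 and at 9.79 and 7.001 (limma adjusted p = 0.037).

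The other 5 effectors lay lower on the arrays numbered 2 without a call in limma. Rtp4, a chaperone of membrane receptors, was at 8.84 and 3.51 with vehicle and at 8.25 and 4.33 with the combination (-4.62, SE 0.36, limma adjusted p = 0.073). Trim30a, a ubiquitin ligase that restrains inflammatory signalling, was at 11.92 and 9.19 and at 11.90 and 8.57 (limma adjusted p = 0.054). Mx1, which in many laboratory strains carries a deletion, was at 7.31 and 4.49 and at 6.76 and 4.79 (limma adjusted p = 0.12). For each of these 3 genes, both arrays numbered 2 lay below both numbered 1. Ifi35 was at 9.84 and 8.53 and at 10.04 and 8.42, and Isg20, an RNA exonuclease, at 8.85 and 7.99 and at 8.82 and 7.77.

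The interferon-inducible GTPases attack vacuoles that hold intracellular parasites and are classic targets of interferon gamma. Irgm1, which controls the other members, was at 10.42 and 6.82 with vehicle and at 10.19 and 6.79 with the combination (-3.50, SE 0.15, limma adjusted p = 0.026). Igtp (Irgm3) was at 12.53 and 9.60 and at 11.86 and 7.61 (-3.59, SE 0.34, limma adjusted p = 0.11). The guanylate-binding proteins differed less: Gbp3 was at 7.46 and 6.71 and at 7.81 and 6.22 (-1.16, limma adjusted p = 0.30). Gbp2 was at 6.27 and 5.52 and at 5.38 and 4.68 (-0.73, limma adjusted p = 0.29). Irgm1 was thus the GTPase that limma called, of 4 measured.

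**Figure D2:**
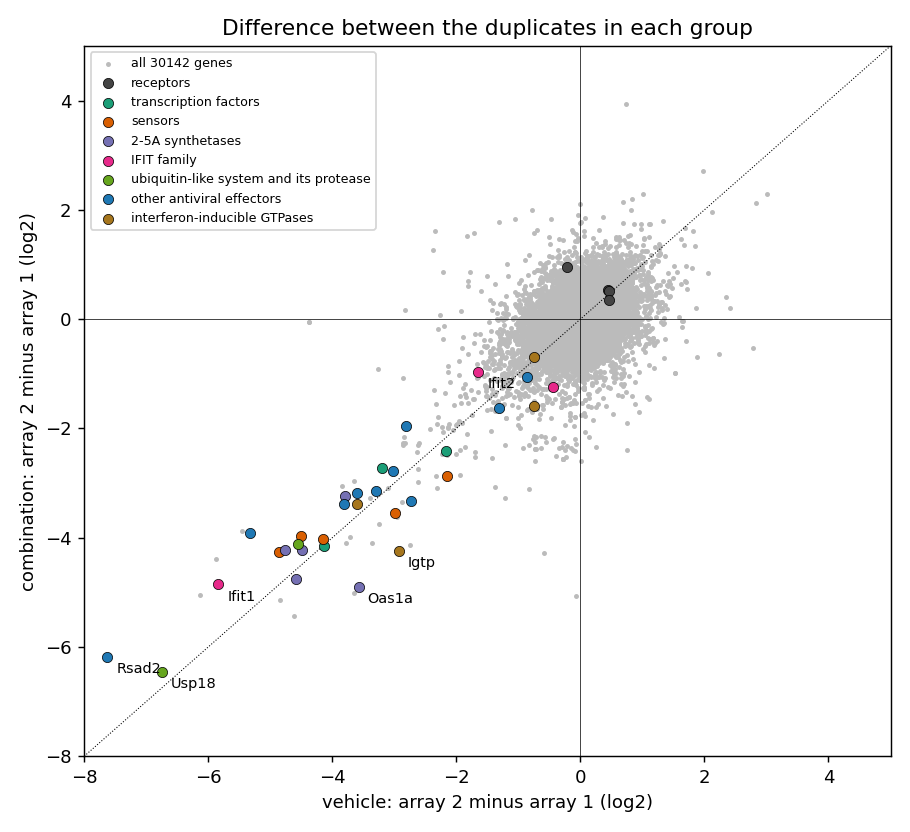
Difference between the duplicates, as array 2 minus array 1 on the log2 scale, in the vehicle group (horizontal axis) and the combination group (vertical axis) for 30142 genes (grey) and the 36 members (coloured by role); the dotted line marks equal differences. Most interferon-stimulated genes lie far down the diagonal, with Rsad2 at -7.63 and -6.18. The receptors lie between -0.21 and 0.46 with vehicle and between 0.34 and 0.95 with the combination.

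The receptor chains did not follow the other members. Ifnar1 was at 8.70 and 9.15 on the vehicle arrays numbered 1 and 2 and at 8.95 and 9.49 on the combination arrays (0.49, SE 0.14, limma adjusted p = 0.40). Ifnar2 was at 12 and 12.46 and at 11.81 and 12.33 (0.49, SE 0.14, limma adjusted p = 0.40), and Ifngr2, the signalling chain of the interferon gamma receptor, at 8.83 and 9.29 and at 8.89 and 9.23 (0.40, SE 0.14, limma adjusted p = 0.47). For these 3 chains both arrays numbered 2 lay above both numbered 1, as for 19.8% of all named genes. Ifngr1, the chain that binds interferon gamma, was at 10.28 and 10.07 with vehicle and at 11.09 and 12.04 with the combination, so its arrays were ordered by treatment and not by number.

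Sequence upstream of the members is shown for genes that had both a large difference between the numbers and the response element. Ifngr1 is shown as a gene without it. Oasl1, Oasl2, Irf7 and Xaf1 did not hold the element and are not printed, although number 2 minus number 1 was -4.49, -4.36, -4.14 and -3.60. RefSeq promoters of assembly GRCm38.p6, a C57BL/6J and not an NOD genome, were found for 28 of the 36 measured members. The element was searched as GAAANNGAA on both strands within 300 bases, 250 of them before the start site. It occurred for 16 of the 28 members (57.1%), against 9.76% of the 27025 genes with a promoter in that table. Each line below gives the 140 bases before the start site, 5′ to 3′ on the gene's strand, with the element on either strand in capitals; adjacent copies overlap and print as 1 run.
Rsad2 (chr12:26456453-26456592, minus strand): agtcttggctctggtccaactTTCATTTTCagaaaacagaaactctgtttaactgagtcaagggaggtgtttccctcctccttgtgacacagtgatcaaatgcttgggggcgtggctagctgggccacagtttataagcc
Ifit1 (chr19:34640749-34640888, plus strand): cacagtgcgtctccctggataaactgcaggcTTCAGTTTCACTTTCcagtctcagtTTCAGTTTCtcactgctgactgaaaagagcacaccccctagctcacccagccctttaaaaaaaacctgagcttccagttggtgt
Isg15 (chr4:156200819-156200958, minus strand): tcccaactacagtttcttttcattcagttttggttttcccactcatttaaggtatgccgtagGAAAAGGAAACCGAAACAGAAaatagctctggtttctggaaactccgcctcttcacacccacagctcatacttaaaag
Oas1a (chr5:120907526-120907665, minus strand): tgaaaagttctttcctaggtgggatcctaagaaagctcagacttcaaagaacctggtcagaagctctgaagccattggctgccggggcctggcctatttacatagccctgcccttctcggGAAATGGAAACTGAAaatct
Oas3 (chr5:120777660-120777799, minus strand): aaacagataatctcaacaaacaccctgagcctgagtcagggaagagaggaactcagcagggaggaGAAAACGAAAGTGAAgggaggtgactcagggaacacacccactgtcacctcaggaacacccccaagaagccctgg
Bst2 (chr8:71537473-71537612, minus strand): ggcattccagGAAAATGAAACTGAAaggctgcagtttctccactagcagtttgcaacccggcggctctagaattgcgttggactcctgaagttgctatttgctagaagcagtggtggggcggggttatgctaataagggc
Igtp (chr11:58199416-58199555, plus strand): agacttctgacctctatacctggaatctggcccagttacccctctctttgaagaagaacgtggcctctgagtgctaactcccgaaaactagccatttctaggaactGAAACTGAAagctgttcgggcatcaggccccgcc
Irgm1 (chr11:48871421-48871560, minus strand): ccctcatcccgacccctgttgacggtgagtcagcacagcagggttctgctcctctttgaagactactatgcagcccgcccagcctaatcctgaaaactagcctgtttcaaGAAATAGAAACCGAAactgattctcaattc
Ifngr1 (chr10:19591809-19591948, plus strand): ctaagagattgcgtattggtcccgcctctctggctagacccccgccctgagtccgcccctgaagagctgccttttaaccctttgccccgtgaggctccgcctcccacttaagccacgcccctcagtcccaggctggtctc

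In Ifit1 the element occurred as an overlapping pair, at 109 and 103 bases before the start site, and again at 84, and in Isg15 as an overlapping triplet from 78 to 66. Oas1a, Oas3, Bst2 and Irgm1 each held an overlapping pair, at 20 and 14, 75 and 69, 130 and 124, and 30 and 24 bases before the start. Rsad2 and Igtp held 1 copy, at 119 and 34 bases. The element also occurred in the windows of Ifit3, Stat2, Gbp2, Gbp3, Ifih1, Ddx58, Trim30a and Eif2ak2, and for Ddx58 and Eif2ak2 it lay after the start site alone. It was not found in the windows of the 4 receptor genes, nor in those of Irf7, Irf9, Ifit2, Isg20, Ifi35, Oasl1, Oasl2 and Xaf1. Usp18, Mx1, Mx2, Oas2, Rtp4, Zbp1, Dhx58 and Parp14 had no entry. A match is a description of letters and not of a bound site.

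Members with the element and members without it were both low on the arrays numbered 2. Of the 16 with it, 13 were lower by at least 1 in both groups, with median differences of -3.44 with vehicle and -3.47 with the combination. Of the 8 interferon-stimulated genes with a promoter entry and no element, 6 were lower by at least 1 in both groups, with medians of -2.99 and -2.90. Outside the members, 30 of 1661 genes with the element (1.81%) were lower by at least 1 in both groups, against 66 of 16281 without it (0.405%). The stricter form GAAANTGAA, a subset of the first, gave 15 of 406 (3.69%). Only the members were left out of these counts, and the further interferon targets described next were not. The gamma-activated sequence, searched as TTCNNNGAA, occurred for 9 of the 28 members (32.1%) and 9.55% of all genes, and it can overlap the response element. Elements of the drugs' own pathways were searched too: the core of the glucocorticoid response element (ACANNNTGT) occurred for 2 members, Gbp3 and Oasl1 (7.14%, against 7.90% of all genes), and the cAMP response element (TGACGTCA) for 0 members, against 2.03% of all genes.

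Other genes of the interferon pathway were read from 5 lists with 75 measured genes. The 11 interferon genes themselves, among them Ifnb1, Ifna4 and Ifng, lay between 2.98 and 5.50 on every array, all within the background range, and 0 passed limma's test of the number at an unadjusted p under 0.05. Of 40 further interferon targets, 32 were lower on the arrays numbered 2 at an unadjusted limma p under 0.05, against 5.24% of all named genes. Lower by at least 1 in both groups were 22, against 0.574% of all named genes. In limma 5 passed the adjusted threshold, against 0.109% of all named genes. Those 5 were Slfn8, Lgals3bp, Sp100, Slfn5 and Oas1g. Lgals3bp, a secreted galectin-binding protein gene, differed by -3.21 and Sp100, a nuclear body protein gene, by -3.10, and both had a limma adjusted p of 0.026.

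Other genes of the signalling path had medians near 0, unlike Stat2 and Irf9 among the members. Over 8 measured kinases and factors (Jak1, Jak2, Tyk2, Stat3, Irf1, Irf2, Irf3 and Irf5) the median of number 2 minus number 1 was 0.08, and Irf5 and Stat3 were higher by 0.43 and 0.44 (limma adjusted p = 0.44 and 0.49). Over 6 feedback inhibitors the median was 0.09, with Ptpn6 (SHP-1) higher by 0.52 (limma adjusted p = 0.38). Over 10 genes of nucleic acid sensing upstream of interferon it was -0.01. Sting1, the adaptor of cytosolic DNA sensing, ran against the interferon targets: it was at 8.47 and 10.59 with vehicle and at 7.04 and 9.01 with the combination (2.04, limma adjusted p = 0.063). Cgas, the enzyme upstream of it, differed by -0.90 (limma adjusted p = 0.26) and the endosomal RNA receptor gene Tlr3 by -0.61 (limma adjusted p = 0.42).

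Markers of other cells moved with the number in part. The neutrophil granule gene Ngp was at 14.82 and 8.69 with vehicle and at 14.98 and 9.93 with the combination, Camp at 13.51 and 7.63 and at 12.80 and 8.41, and Ltf at 10.38 and 5.60 and at 10.22 and 6.04. Of 8 listed neutrophil markers, which do not include Ngp, 4 were lower by at least 1 in both groups, against 0.574% of all named genes. These 4 were Camp, Ltf, S100a8 and S100a9. S100a8 differed by -1.30 with vehicle and -1.09 with the combination, and S100a9 by -1.52 and -1.27. Mmp8 differed by -1.95 and -0.76 and Cxcr2 by -0.19 and 1.08, while Ly6g and Mmp9 lay within the background range on every array. The summed log2 signal of the list was 77.3 and 61.4 on the vehicle arrays and 82.1 and 70.9 on the combination arrays. The part of these genes in the difference of the interferon-stimulated genes was not tested. Of 8 plasmacytoid dendritic cell markers, cells that make much interferon, Bst2 and Irf7 are members and carried the shift. The other 6 had medians of 0.03 and -0.02, with Siglech between 6.30 and 6.48 and Ccr9, Klk1, Ly6d and Cox6a2 within the background range. Of 6 LK progenitor markers, number 2 minus number 1 was 0.98 with vehicle and 1.00 with the combination for Cd34, 1.33 and 0.70 for Flt3, and 0.62 and 0.40 for Cd48. It was 0.15 and -0.90 for Kit, 0.31 and -0.08 for Myb and 0.04 and 0.05 for Gata2, so the sign for Kit and Myb differed between the groups. Both measured erythroid markers lay lower on the arrays numbered 2, Klf1 by differences of -1.57 and -0.78 and Epor by -0.79 and -0.58. Of 6 monocyte and macrophage markers, 4 had an unadjusted limma p under 0.05, against 9.54% of all named genes. Csf1r (0.64 and 0.28), Ly6c2 (0.69 and 0.34) and Cd68 (1.13 and 0.51) were higher and Fcgr1 (-0.84 and -1.65) lower on the arrays numbered 2. Cx3cr1 differed by 0.27 and 0.19 and Adgre1 by 0.19 and -0.10. None of the LK, erythroid or monocyte markers had a limma adjusted p under 0.05, and their part in the result was not tested either.

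Differences of the interferon-stimulated genes between the treatments were smaller than those between the numbers. Within number 1 the combination array minus the vehicle array had a median of -0.11 over the 36 members, and 24 members differed by less than 0.5 in either direction. Within number 2 the median was -0.09, and 25 members differed by less than 0.5. The median absolute difference was 0.23 and 0.305 between the treatments, within numbers 1 and 2, and 3.25 and 3.28 between the numbers, within vehicle and combination. Both differences of a member pointed down for 14 members (38.9%, against 25.9% of all named genes), up for 3 (8.33%, against 30.3%) and apart for 19.

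Limma called 0 of the 36 members between combination and vehicle at an adjusted p under 0.05, against 0.00332% of all named genes. At an unadjusted p under 0.05 it took 1 member, Ifngr1, against 5.31% of all named genes. With treatment as the only term the spread between the numbers enters the error: the SE of the difference was 3.24 for Rsad2 and 3.08 for Usp18, so a drug difference of the size seen could not be detected there. A p that misses the threshold therefore does not show that these genes were alike. Mean differences of at least 1 were found for Ifngr1 and Igtp, 2 of 36 members, against 1.31% of all named genes.

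**Figure D3:**
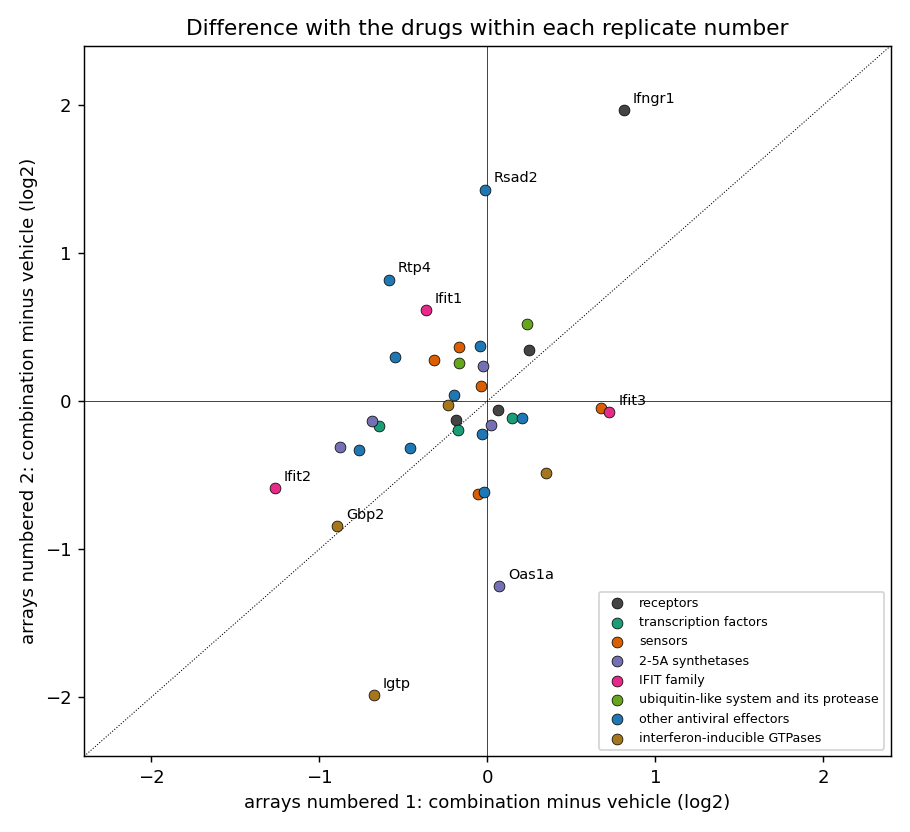
Combination minus vehicle on the log2 scale for the 36 members, for number 1 (horizontal axis) and number 2 (vertical axis), coloured by role; the dotted line marks equal differences. Most members lie near 0, Ifngr1 lies at 0.81 and 1.97, Igtp at -0.67 and -1.99 and Gbp2 at -0.89 and -0.84.

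In the fit with treatment alone, which leaves the number in the error, Ifngr1 was the only member past the unadjusted threshold, and it missed the adjusted one. Vehicle arrays were at 10.28 and 10.07 and combination arrays at 11.09 and 12.04, so both combination arrays lay above both vehicle arrays, as for 19.7% of all named genes. The mean was 10.18 ± 0.15 with vehicle and 11.57 ± 0.67 with the combination (SD, n = 2), 2.62-fold higher, with an unadjusted p of 0.012 in limma and an adjusted p of 0.75. Within number 1 the difference was 0.81, and within number 2 it was 1.97. Of 8 neutrophil markers, 2 had a mean higher by at least 1 with the combination, against 0.886% of all named genes. These were Mmp8 and the chemokine receptor gene Cxcr2. Cxcr2 was at 9.06 and 8.87 on the vehicle arrays and 12.75 and 13.83 on the combination arrays, and Mmp8 differed by 2.43. The remaining markers differed by 0.38 for S100a8, 0.14 for Ltf, 0.09 for S100a9, 0.09 for Mmp9, 0.03 for Camp and -0.33 for Ly6g. The part of these markers in the difference of Ifngr1 was not tested. The other 3 chains differed by 0.30 (SE 0.26) for Ifnar1, -0.16 (SE 0.26) for Ifnar2 and 0.00 (SE 0.23) for Ifngr2.

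Igtp and Gbp2, both GTPases, lay lower with the drugs within each number. For Igtp the difference was -0.67 within number 1 and -1.99 within number 2 (mean -1.33, SE 1.71, limma adjusted p = 0.97). Gbp2 differed by -0.89 and -0.84, and it was the only member with both combination arrays below both vehicle arrays, as for 15.4% of all named genes. Its mean was 5.89 ± 0.53 with vehicle and 5.03 ± 0.50 with the combination (SD, n = 2, limma adjusted p = 0.90). Gbp2 lay within the background range on vehicle 2 and on both combination arrays. Ifit2 differed by -1.26 and -0.59, Oas3 by -0.88 and -0.31, Xaf1 by -0.76 and -0.33 and Oasl1 by -0.69 and -0.13. Usp18 was higher by 0.24 and 0.52. None of these members passed limma's test.

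Some members differed between treatments mainly on the arrays numbered 2. Rsad2 differed by -0.02 within number 1 and by 1.43 within number 2, where vehicle lay within the background range. Oas1a differed by 0.07 and -1.25. Whether the drug difference depends on the number could not be tested, since each number holds 1 array of each treatment.

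Among the related lists, limma called 0 of the 75 genes between the treatments at an adjusted p under 0.05, against 0.00332% of all named genes. An unadjusted p under 0.05 in limma took 5.31% of all named genes. It took 0 of 11 interferon genes, 1 of 8 kinases and factors and 2 of 6 feedback inhibitors. Of the sensing genes it took 3 of 10, and of the further targets 2 of 40, Slfn1 and Slfn2, higher by 1.80 and 1.93. The receptor kinase gene Jak2 was higher by 0.54 (limma adjusted p = 0.87). Among the feedback inhibitors, Socs1 was higher by 0.72 (limma adjusted p = 0.58), and Ptpn6 differed by -0.98 (adjusted p = 0.80). In nucleic acid sensing, the kinase gene Tbk1 differed by 0.50 (limma adjusted p = 0.78), the adaptor gene of RNA sensing Mavs by -0.56 (adjusted p = 0.78) and the Toll-like receptor adaptor gene Myd88 by -0.48 (adjusted p = 0.85). Sting1 differed by -1.43 and -1.58 within numbers 1 and 2 without passing (limma adjusted p = 0.94).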

How the data were processed

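Expression was measured on 4 Affymetrix-type arrays, 1 per sample. Per the submitters' processing notes, the authors used RMA and the Transcriptome Analysis Console, and the deposited signals are on the log2 scale. Software versions and a genome build were not stated in the labels. RMA makes the arrays' distributions alike and compresses low signals. From 72688 rows, 6732 control rows were left out, which left 65956 features. Symbols were updated through Entrez identifiers with RefSeq (GRCm38.p6). Where a gene had several probe sets, the highest mean was used.

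Tests were limma's moderated ones (limma 3.58.1, R 4.3.3), two-sided, over all features with Benjamini-Hochberg adjustment at 0.05. Treatment was tested alone (2 residual degrees of freedom), and number beside treatment (1). The fit with treatment and number was run on simulated data, and the fit with treatment alone was not. Differences of single arrays have no test. Alternatives were the replicate block, the prior, a filter on dim features, normalization, centring, control rows, probe set, symbols and leaving out each array. Described in full are members that differ by 1 or more between treatments or numbers, have an unadjusted p under 0.05, or are receptors. Members, lists and tests were chosen with earlier results of these data known. Arrays have no read depth, and their number limits the precision.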

Additional observations from a re-analysis of the deposited data

Results flagged for a closer look

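Rtp4 differed in opposite directions with the drugs in the 2 numbers. The combination array lay below the vehicle array by a difference of -0.59 within number 1 and above it by 0.82 within number 2. Both arrays numbered 2 (3.51 and 4.33) lay within the background range, and the difference between the numbers was not tested.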

How the results depend on the processing

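The difference between the numbers kept its direction for all 36 members under every alternative run on 4 arrays, but the count called by limma was 20 with an intensity trend, 14 with a robust prior, 17 with a filter on dim features and 0 after a second quantile normalization, with centred arrays or with control rows kept. At an unadjusted p under 0.05, 34 or 35 members passed in each of these. The median was -3.33, and -3.24 after the second quantile normalization, where it was -3.17 within vehicle and -3.20 within the combination; it was -3.29 within vehicle with centred arrays. The cause of the lost calls was not tested.

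Between combination and vehicle, limma called 0 members under each alternative. The median was -0.069, -0.052 after quantile normalization and -0.12 with centred arrays, and from -1.97 to 1.33 without 1 array, since such a fit leaves the numbers unequal between the groups. Igtp then ran from -3.46 to 0.79, Ifnar2 from -0.42 to 0.10 and Ifngr2 from -0.23 to 0.23, while Ifngr1 stayed between 0.92 and 1.86. With centred arrays Ifngr2 was at -0.050. The median within number 1 was -0.074 after quantile normalization and -0.19 with centring, and within number 2 it was -0.12 with centring. The stricter element gave 10 members.

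With the replicate block, 0 members passed the adjusted threshold in limma and 7 passed at an unadjusted p under 0.05 (Ifit2, Oas3, Gbp2, Bst2, Xaf1, Igtp and Ifngr1), against 7.71% of all named genes; the adjusted threshold took 0.0365% of them. The labels give the numbers no pairing. As a check, the number differences of the 2 groups correlated at r = 0.33 over all 65956 features. Over the 30142 named genes r was 0.47, and without the members and the related genes it was 0.39.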

Other observations

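Schlafen genes, a family of interferon targets that restrain growth and viral translation, divided by treatment and number. Slfn1 was at 4.66 and 4.21 on the vehicle arrays and at 6.36 and 6.11 on the combination arrays, 3.48-fold higher (limma adjusted p = 0.32). Both vehicle values of Slfn1 lay within the background range, so its fold may be understated. Slfn2, which keeps progenitors and T cells quiescent, was at 9.36 and 8.74 and at 10.89 and 11.06, 3.80-fold higher (limma adjusted p = 0.34). Neither passed the threshold. From number 1 to number 2, Slfn1 lay lower in both groups, and Slfn2 lay lower with vehicle and higher with the combination. Slfn5 and Slfn8 were ordered by number instead, at 7.10 and 4.22 and at 7.83 and 4.49 for Slfn5 and at 10.28 and 6.89 and at 10.14 and 6.87 for Slfn8 (number 2 minus number 1 of -3.11 and -3.33, limma adjusted p = 0.047 and 0.026).

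Of the 33 genes called between the numbers, 10 were neither members nor in the 5 pathway lists, and they were looked up after their values were seen. They included Rnf213, a large ubiquitin ligase gene, at 13.73 and 8.89 with vehicle and 13.57 and 8.43 with the combination, and Samd9l, a restrainer of growth, at 11.52 and 7.74 and at 11.75 and 7.65. Uba7, the enzyme that activates Isg15 for conjugation, was at 10.56 and 7.93 and at 9.73 and 7.30. The others were Oas1b, Gm12250, Ifi209, Trim30d, Lgals9, Ltf and Ngp. Among the 20 genes lowest on the arrays numbered 2, 13 were members, and among the lowest 100, 26 were.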
